A study of Mus musculus with 13 samples.

Results

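The IFIT family of the mouse, the interferon-induced proteins with tetratricopeptide repeats, was followed as 4 genes, Ifit1, Ifit2, Ifit3 and Ifit3b, across the RNA of YUMM1.7 melanoma cells. The members were chosen by name: a row of the count table was taken where its Ensembl identifier, without its version, carries one of these symbols in the GENCODE M21 annotation of GRCm38. All 4 were found among the 54532 genes of the table. They lie in a row on the forward strand of chromosome 19, Ifit2 (ENSMUSG00000045932) at chr19:34550694-34576419, Ifit3 (ENSMUSG00000074896) at chr19:34583531-34588731, Ifit3b (ENSMUSG00000062488) at chr19:34607970-34613401 and Ifit1 (ENSMUSG00000034459) at chr19:34640871-34650009. No other annotated gene overlaps any of them.

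IFIT proteins are cytosolic RNA-binding proteins that cells make in large amounts after interferon signaling or after direct activation of interferon regulatory factors. Ifit1 binds RNA whose cap lacks methylation on the first transcribed nucleotide and blocks its translation, Ifit2 binds RNA and restricts viral replication, and Ifit3 and Ifit3b are close relatives known as partners in IFIT complexes. The chain that induces them runs from sensors of foreign or unedited duplex RNA through Mavs to type I interferon, and from the interferon receptor through a transcription factor complex with Stat2 and Irf9 to interferon-stimulated response elements. For this reason IFIT genes are widely read as a measure of interferon signaling in tumor cells.

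YUMM1.7, a cutaneous melanoma line of the mouse whose genotype is labelled WT, was treated with DMSO, with ADAR1i-124 (a small-molecule inhibitor of the RNA editing enzyme ADAR1, 10 µM for 12 h in the study's account), with 5-AZA-CdR (an inhibitor of DNA methylation, 1 µM for 72 h) or with the combination, in which, by the study's account, the same dose and time of 5-AZA-CdR came first and those of ADAR1i-124 followed. The labels give no dose or time for the combination libraries, and the study also combined 5-AZA-CdR with 1 µM ADAR1i-124. RNA was sequenced after removal of ribosomal RNA as total RNA (4 libraries), after precipitation with J2, an antibody to duplex RNA (4 libraries), after precipitation with Z22, an antibody to Z-form nucleic acid (4 libraries), and after precipitation with IgG (1 library). RNA for precipitation had been digested with RNase I, which degrades single strands, and with DNase. How the cells of the IgG library were treated is not given in the sources used here. Each condition has 1 library of 1 cell line, so no difference has a replicate check, no p-value is given, and fewer cells of a kind cannot be told apart from less RNA per cell.

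Ifit1, Ifit3 and Ifit3b share short promoter elements that the Ifit2 windows lack, and the sequences are shown because the members differ in them. The letters searched were GAAANNGAAA and its reverse complement TTTCNNTTTC, the core of the interferon-stimulated response element, on both strands of the RefSeq promoter windows of GRCm38.p6, which hold the 250 bases before and 50 bases after each start. All 4 members and both related genes below have a window. The motif occurs in 3.44% of 32851 windows, and 2 or more matches occur in 0.225% of them. Ifit1, Ifit3 and Ifit3b each hold 2 matches, with the same letters in the same order, and the 2 windows of Ifit2 hold none. For each member a stretch that ends 70 bases before the start is printed 5′ to 3′ on the forward strand, with matches in capitals. The last line is no promoter window and ends directly before an exon of Ifit2.
Ifit1 at chr19:34640694-34640819: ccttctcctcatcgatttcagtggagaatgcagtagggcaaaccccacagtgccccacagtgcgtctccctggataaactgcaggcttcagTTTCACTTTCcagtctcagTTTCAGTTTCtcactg
Ifit3 at chr19:34583334-34583459: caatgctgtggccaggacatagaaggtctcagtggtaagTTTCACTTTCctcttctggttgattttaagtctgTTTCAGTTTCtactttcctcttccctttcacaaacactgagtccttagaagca
Ifit3b at chr19:34607762-34607887: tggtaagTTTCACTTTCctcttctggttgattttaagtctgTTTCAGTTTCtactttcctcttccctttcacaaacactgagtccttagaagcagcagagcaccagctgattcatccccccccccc
Ifit2, first start, chr19:34550499-34550624: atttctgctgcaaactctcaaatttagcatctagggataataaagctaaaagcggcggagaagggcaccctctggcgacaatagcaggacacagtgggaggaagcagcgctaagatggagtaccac
Ifit2, before the exon with the start codon, chr19:34570093-34570218: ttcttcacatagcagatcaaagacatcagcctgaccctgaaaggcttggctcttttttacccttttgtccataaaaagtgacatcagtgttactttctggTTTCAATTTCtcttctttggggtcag

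The Ifit3 and Ifit3b windows are nearly the same sequence at different distances from the start, with matches 156 to 147 and 122 to 113 bases before it in Ifit3 and 188 to 179 and 154 to 145 bases before it in Ifit3b. The Ifit1 matches lie 104 to 95 and 85 to 76 bases before its start. These are the same bases that serve as the 2 matches of Ifit1bl2, a related gene on the reverse strand whose start lies 146 bases away. In Ifit2 the annotated start lies far upstream of the coding exons, and a match stands 26 to 17 bases before the exon at chr19:34570219-34570370, which holds its start codon. The 25726 bases of the Ifit2 gene hold 8 matches in all. The 9139 bases of the Ifit1 gene hold 1, and the 5201 of Ifit3 and 5432 of Ifit3b hold 0. Matches within whole genes were not counted over all genes. Of 17 interferon-stimulated effectors with a window, from the list described below, 9 hold 1 or more matches and 4 hold 2 or more. All 17 were lower past the line with ADAR1i-124 in total RNA, beside 8.70% of all genes. All 25 genes of that list were, so this gives no comparison of genes with and without a match. A match is a description of letters, and binding was not measured.

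Counts were scaled to CPM, with the sum of the table's counts for a library as its total, which was 8167960 to 34571822 in the 12 libraries used. Ratios of CPM are given with exact binomial 95% intervals, which cover the error of counting and nothing else, since amplified copies of 1 molecule cannot be recognised in these reads. A gene was said to be past the line where log2 of (CPM + 0.5) differed by 2-fold or more, which understates the difference of low genes, and shares of all genes are over those that averaged at least 1 CPM in the compared libraries. The combination library of total RNA was left out of all levels and ratios. It has 1245894 counts, and over 13766 pairs of genes on opposite strands its counts followed those of the same genes in the DMSO library with a Spearman's rho of 0.216 and those of the partners with 0.682. The other libraries had at least 0.893 and at most 0.0207. The DMSO library of Z22 also stood apart, with 34.9% of its counts on the ribosomal-RNA-like gene Gm42418 against 10.6% to 18.9% in the other precipitated libraries. Of 8 melanocyte markers, Mitf was present at 9.68 to 33.1 CPM, Tyr and Tyrp1 were at 0 in all 12 libraries and the other 5 stayed under 1 CPM. Among 8 leukocyte markers, the T-cell gene Cd3e and the B-cell gene Ms4a1 had at most 1 count in any library, while the lysosomal gene Cd68 was at 6.46 to 75.4 CPM.

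Markers of other cell types moved between the same libraries. The summed level of 4 fibroblast markers was 179 CPM in total RNA with DMSO, 59.5 with ADAR1i-124 and 480 with 5-AZA-CdR. In J2 RNA it was 115 CPM (DMSO), 38.7 CPM (ADAR1i-124), 64.4 CPM (5-AZA-CdR) and 86.2 CPM (combination), and in Z22 RNA it was 131, 66.5, 72.8 and 91.6 CPM in that order. The sum was lowest with ADAR1i-124 in each kind of RNA, but through different genes. In total RNA Pdgfrb was at 169 CPM with DMSO and 30.6 with ADAR1i-124 while Pdgfra went from 5.23 to 25.4 CPM. In Z22 RNA the difference lay in Col1a1, at 66.8 and 1.64 CPM, with Pdgfra and Pdgfrb at log2 ratios of 0.08 and 0.01. Dcn had 1 count and 0 counts there. The sum of 4 endothelial markers, mostly Cdh5, was 4.23, 18.4 and 83.2 CPM in the 3 total RNA libraries, lowest with DMSO. In J2 RNA it was 8.95, 3.75, 61.9 and 61.4 CPM and in Z22 RNA 7.33, 4.36, 32.2 and 26.8 CPM, lowest with ADAR1i-124 in both, as were all 4 members in J2 RNA and all but Ifit2 in Z22 RNA. The leukocyte sum, mostly Cd68 with no other marker above 1.42 CPM, was 8.64, 20.5 and 77.9 CPM in total RNA, also lowest with DMSO. It was 60.2, 7.15, 18.3 and 19.3 CPM in J2 RNA and 15.7, 13.3, 41.6 and 55.1 CPM in Z22 RNA, again lowest with ADAR1i-124. The part of these genes in the IFIT values was not tested.

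In total RNA, all 4 members were lower with ADAR1i-124 than with DMSO, and Ifit2 kept far more of its level than the others. Ifit1 was at 271 CPM with DMSO (4617 counts), 7.72 CPM with ADAR1i-124 (136 counts) and 163 CPM with 5-AZA-CdR (5624 counts). Ifit3 was at 227, 2.38 and 231 CPM in the same order, from 3863, 42 and 7986 counts. Ifit3b was at 81.5, 1.19 and 101 CPM, from 1387, 21 and 3490 counts. In each of these 3 genes the ADAR1i-124 library lay far below the other libraries of total RNA. Ifit2 was at 153 CPM with DMSO (2605 counts), 37.0 CPM with ADAR1i-124 (652 counts) and 87.4 CPM with 5-AZA-CdR (3021 counts), again lowest with ADAR1i-124 but over a narrower range.

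The ADAR1i-124 level was 95.2-fold lower than DMSO for Ifit3 (70.3 to 132), 68.4-fold lower for Ifit3b (44.6 to 111) and 35.2-fold lower for Ifit1 (29.6 to 42.0). Ifit2 was 4.14-fold lower (3.8 to 4.51), and its interval does not meet those of the others. All 4 members were past the 2-fold line, as were 8.70% of the 13693 genes tested in that direction. The median log2 ratio of the members was −5.32, and that of all genes was −0.09. Counted from the lowest ratio of all genes, Ifit3 stood at rank 7, Ifit3b at 19, Ifit1 at 31 and Ifit2 at 275. The members' ratios therefore lay near the bottom of the distribution, and Ifit2 lay at a much higher rank than its neighbors on the chromosome. The study reports the other direction for Ifit1, which ADAR1i-124 induced in these cells by qRT-PCR with biological replicates. It reports the interferon-stimulated genes Isg15 and, after a longer treatment, Ifih1 as induced too. The libraries here have no replicates, and the difference from those assays was not tested.

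**Figure D1:**
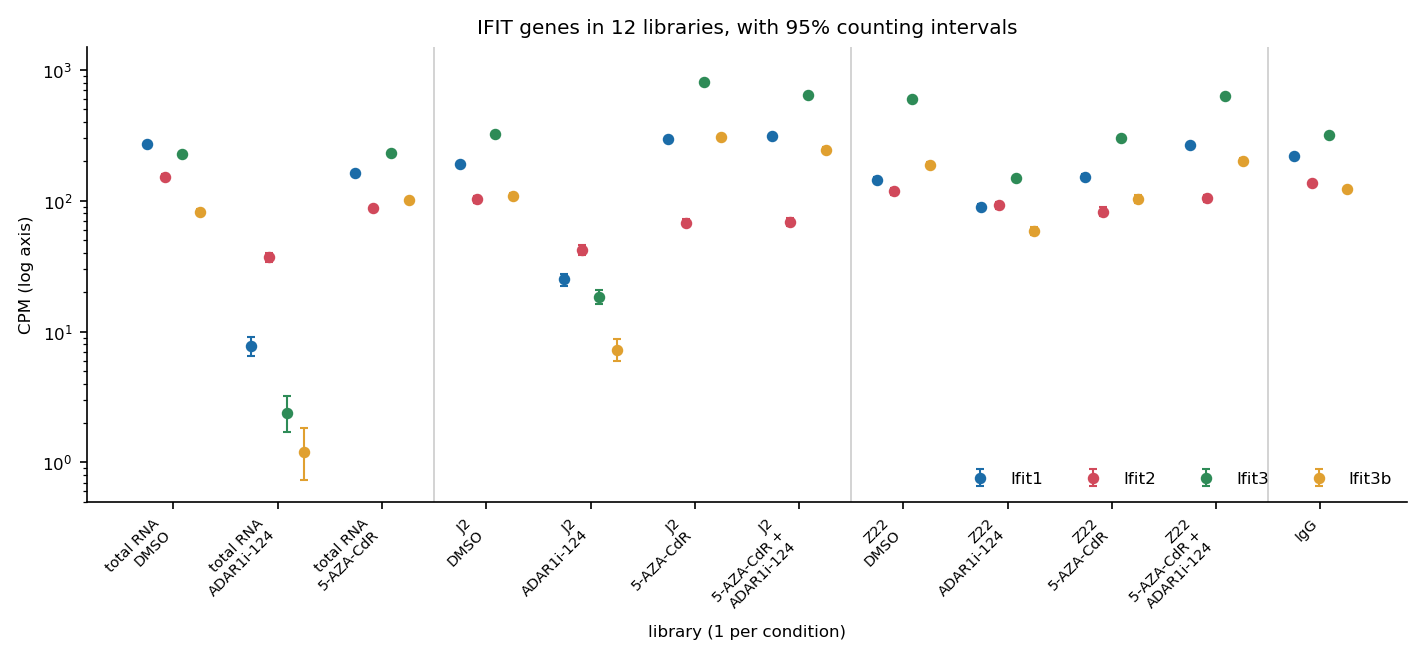
CPM on a log axis of Ifit1, Ifit2, Ifit3 and Ifit3b in the 12 libraries used, 1 per condition, with exact 95% counting intervals. In total RNA with ADAR1i-124, Ifit2 stands at 37.0 CPM and the others between 1.19 and 7.72 CPM, while in Z22 with ADAR1i-124 the 4 genes stand between 59.1 and 148 CPM.

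The makeup of the family, which does not depend on how libraries are scaled, changed accordingly. Ifit2 gave 20.9% of the family's counts in total RNA with DMSO (exact interval 20.2% to 21.6%, of 12472 counts) and 76.6% with ADAR1i-124 (73.6% to 79.4%, of 851 counts). In J2 RNA its share was 14.1% with DMSO (13.3% to 14.8%) and 45.4% with ADAR1i-124 (42.7% to 48.1%). In Z22 RNA it was 11.3% (10.6% to 11.9%) and 23.7% (22.6% to 24.8%). Within each of the 3 kinds of RNA the share of Ifit2 was higher with ADAR1i-124, by intervals that do not meet, and the lowest shares were those of J2 RNA with 5-AZA-CdR (4.58%) and with the combination (5.41%). Ifit1 counts per Ifit2 count ran from 0.209 in total RNA with ADAR1i-124 to 4.54 in J2 RNA with the combination, with a median of 1.8 over the 12 libraries.

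**Figure D2:**
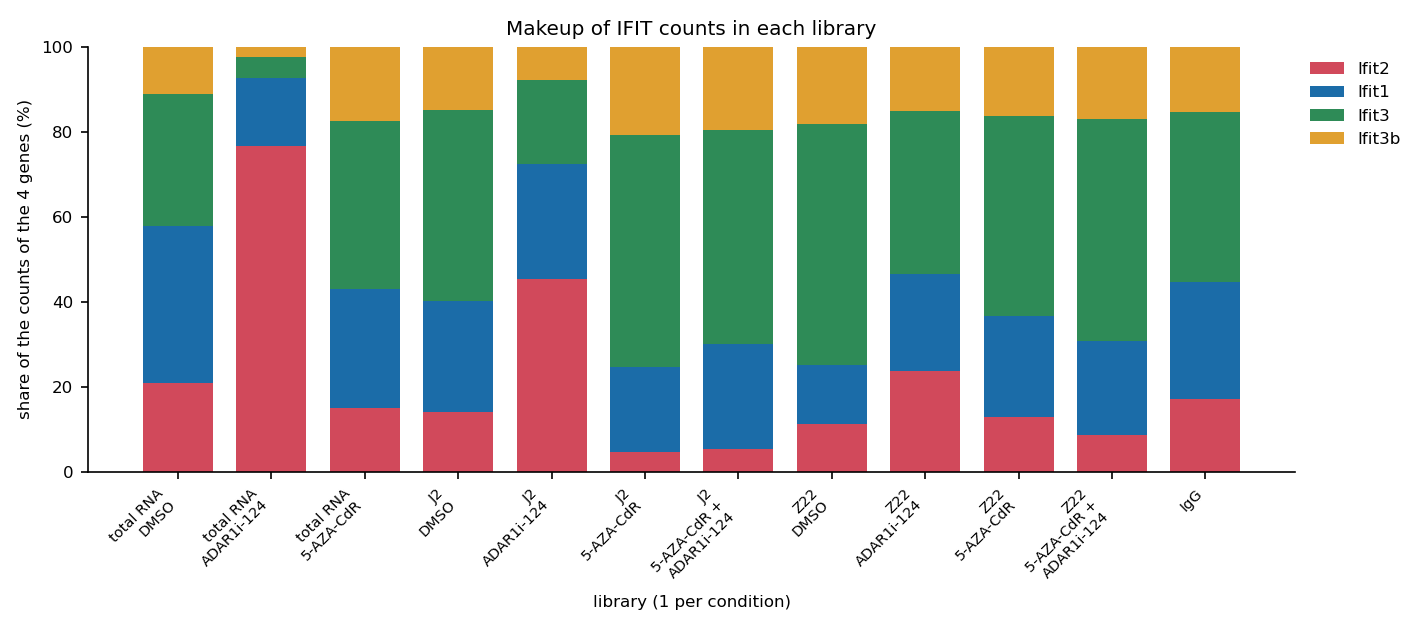
Share, in percent, of the summed counts of the 4 IFIT genes that each gene gave in each of the 12 libraries used. Ifit2 takes 76.6% in total RNA with ADAR1i-124 and 4.58% in J2 RNA with 5-AZA-CdR.

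Per kilobase of annotated exon (1.745 kb for Ifit3, 2 kb for Ifit3b, 2.656 kb for Ifit1 and 3.927 kb for Ifit2), Ifit3 had the highest level in 10 of the 12 libraries. In total RNA with DMSO the levels were 130 CPM per kb for Ifit3, 102 for Ifit1, 40.8 for Ifit3b and 39.0 for Ifit2, and the intervals of the last pair overlap. With ADAR1i-124 in total RNA, Ifit2 moved from the last place to the first and Ifit3 stood below Ifit1, with Ifit2 at 9.42 CPM per kb, Ifit1 at 2.91, Ifit3 at 1.37 and Ifit3b at 0.596, none of which overlap their neighbors in that order. In J2 RNA with ADAR1i-124, Ifit2 (10.7 CPM per kb), Ifit3 (10.5) and Ifit1 (9.42) did not differ beyond their intervals, and Ifit3b was lower at 3.61.

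In J2 RNA, the fraction meant to hold A-form duplexes, the 4 members were again lower with ADAR1i-124 than with DMSO, by smaller folds than in total RNA. Ifit3 was at 327 CPM (DMSO), 18.3 CPM (ADAR1i-124), 813 CPM (5-AZA-CdR) and 640 CPM (combination), from 3983, 264, 10815 and 7529 counts. Ifit3b was at 109, 7.22, 308 and 246 CPM in that order, from 1328, 104, 4100 and 2900 counts. Ifit1 was at 191, 25.0, 296 and 311 CPM, from 2330, 360, 3942 and 3658 counts. For these genes the ADAR1i-124 library was the lowest, and both libraries with 5-AZA-CdR were above DMSO. Ifit2 went another way, at 103 CPM (DMSO), 42.1 CPM (ADAR1i-124), 68.1 CPM (5-AZA-CdR) and 68.4 CPM (combination), from 1250, 606, 906 and 805 counts, so that DMSO was its highest J2 library.

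Against DMSO, the ADAR1i-124 level in J2 RNA was 17.8-fold lower for Ifit3 (15.7 to 20.3), 15.1-fold lower for Ifit3b (12.4 to 18.6), 7.65-fold lower for Ifit1 (6.84 to 8.57) and 2.44-fold lower for Ifit2 (2.21 to 2.69). All 4 were past the line, beside 10.8% of all genes. The order of the members was that of total RNA. The median of the members was −3.37 on the log2 scale and that of all genes 0.00.

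The same comparison in Z22 RNA gave smaller differences. Ifit3 was at 595 CPM (DMSO), 148 CPM (ADAR1i-124), 302 CPM (5-AZA-CdR) and 630 CPM (combination), from 5196, 2177, 2469 and 5760 counts. Ifit3b was at 189, 59.1, 104 and 203 CPM (1650, 866, 846 and 1858 counts), and Ifit1 at 145, 89.3, 152 and 268 CPM (1265, 1310, 1240 and 2449 counts). Ifit2 was at 118, 92.1, 82.6 and 104 CPM (1031, 1350, 675 and 954 counts), the narrowest range of any member in any kind of RNA. The ADAR1i-124 library was the lowest for Ifit1, Ifit3 and Ifit3b, and the 5-AZA-CdR library was the lowest for Ifit2.

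The ADAR1i-124 level of Z22 RNA was 4.01-fold lower than DMSO for Ifit3 (3.81 to 4.22), 3.2-fold lower for Ifit3b (2.95 to 3.48), 1.62-fold lower for Ifit1 (1.50 to 1.75) and 1.28-fold lower for Ifit2 (1.18 to 1.39). Only Ifit3 and Ifit3b were past the line, beside 5.13% of all genes. The Z22 comparisons with DMSO rest on the library with the large Gm42418 share, and the median of all genes there was 0.81. Relative to that median the members were at −2.81 for Ifit3, −2.48 for Ifit3b, −1.51 for Ifit1 and −1.17 for Ifit2 on the log2 scale, and with edgeR's TMM factors or DESeq2's size factors all 4 were past the line. Of the genes past the line, 89.3% were higher with ADAR1i-124 by the table's total, 60.8% with TMM factors and 49.1% with DESeq2 factors.

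**Figure D3:**
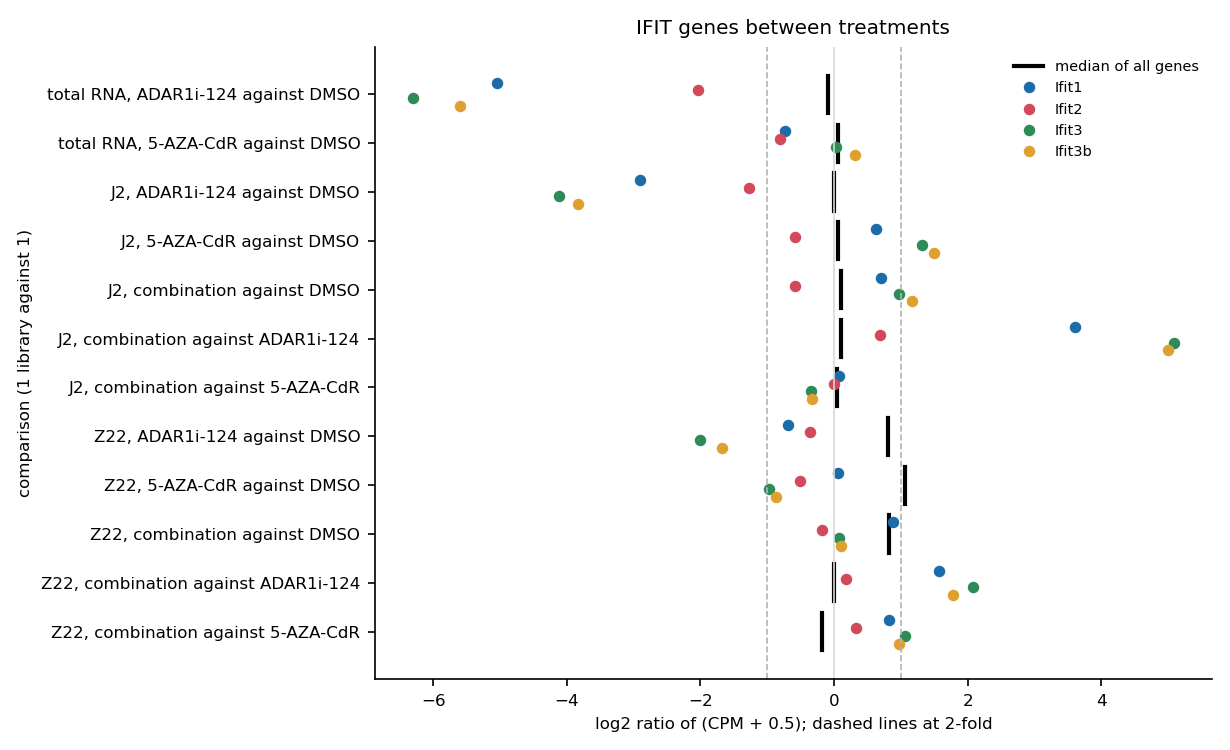
log2 ratio of (CPM + 0.5) of each IFIT gene in the 12 comparisons between treatments, with the median of all genes as a black bar and dashed lines at 2-fold. With ADAR1i-124 against DMSO the members lie between −6.30 and −2.03 in total RNA, between −4.12 and −1.28 in J2 RNA and between −2.00 and −0.36 in Z22 RNA.

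With 5-AZA-CdR the members took different directions in the 3 kinds of RNA. In total RNA no member was past the line, where 26.0% of all genes were past it in either direction: Ifit1 was 1.67-fold lower (1.60 to 1.73), Ifit2 1.75-fold lower (1.66 to 1.85) and Ifit3b 1.24-fold higher (1.16 to 1.32). Ifit3 was at 1.02-fold of DMSO (0.979 to 1.06), an interval that spans equality, and its sign turned with TMM and DESeq2 factors. In J2 RNA Ifit3 was 2.49-fold higher (2.40 to 2.58) and Ifit3b 2.83-fold higher (2.66 to 3.01), both past the line, beside 8.61% of all genes. Ifit1 was 1.55-fold higher there (1.47 to 1.63) and Ifit2 1.51-fold lower (1.38 to 1.64). In Z22 RNA no member was past the line, beside 56.2% of all genes in either direction. Ifit3 was 1.97-fold lower (1.88 to 2.07), Ifit3b 1.83-fold lower (1.68 to 1.99) and Ifit2 1.43-fold lower (1.30 to 1.58), while the median of all genes was 1.06 on the log2 scale. Relative to that median Ifit3 was at −2.04, Ifit3b at −1.93, Ifit2 at −1.57 and Ifit1 at −0.99. With TMM factors 3 members and with DESeq2 factors all 4 were lower past the line, and the sign of Ifit1, 1.05-fold of DMSO (0.968 to 1.13), turned with each other scaling. Of all genes past the line, 92.7% were higher with 5-AZA-CdR by the table's total, 58.2% with TMM factors and 51.9% with DESeq2 factors. The difference between the kinds of RNA was not tested.

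In the combination, the members of J2 RNA stood near their level with 5-AZA-CdR alone, and Ifit1, Ifit3 and Ifit3b stood far above their level with ADAR1i-124 alone. Against ADAR1i-124, the combination was 34.9-fold higher for Ifit3 (30.9 to 39.6), 34.1-fold higher for Ifit3b (28.0 to 41.9) and 12.4-fold higher for Ifit1 (11.2 to 13.9), these 3 past the line beside 14.3% of all genes. Ifit2 was 1.63-fold higher (1.46 to 1.81). Against 5-AZA-CdR no member was past the line, beside 2.08% of all genes in either direction. Ifit3 was 1.27-fold lower (1.23 to 1.31) and Ifit3b 1.25-fold lower (1.19 to 1.31), and Ifit1 was 1.05-fold higher (1.0 to 1.10). For Ifit2 the ratio was 1.0 (0.912 to 1.11), with a sign that turned with each other scaling. Against DMSO only Ifit3b was past the line, at 2.26-fold higher (2.12 to 2.41), beside 8.21% of all genes, and Ifit3 was just inside it at 1.96-fold (1.88 to 2.03). Of all genes past the line in that comparison, 67.9% were higher by the table's total and 57.6% with TMM factors.

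In Z22 RNA the ratios of the combination to ADAR1i-124 had the order Ifit3, Ifit3b, Ifit1 and Ifit2, as in J2 RNA, and were smaller. Against ADAR1i-124, Ifit3 was 4.24-fold higher (4.04 to 4.46), Ifit3b 3.44-fold higher (3.17 to 3.73) and Ifit1 3.0-fold higher (2.8 to 3.21), past the line beside 9.91% of all genes, and Ifit2 was 1.13-fold higher (1.04 to 1.23). Against 5-AZA-CdR, Ifit3 was past the line at 2.08-fold higher (1.99 to 2.18), beside 2.28% of all genes. Ifit3b was 1.96-fold higher (1.81 to 2.13), Ifit1 1.76-fold higher (1.65 to 1.89) and Ifit2 1.26-fold higher (1.14 to 1.39). With TMM or DESeq2 factors Ifit3b and Ifit1 were past the line too, and with totals that leave out the 20 highest genes Ifit3b was. In that comparison 24.3% of the genes past the line were higher by the table's total, 47.0% with TMM factors and 44.7% with DESeq2 factors. Against DMSO no member was past the line by the table's total, beside 48.5% of all genes in either direction, while with DESeq2 factors Ifit2 was lower past it, at −1.04 on the log2 scale. The ratio was highest for Ifit1, at 1.85-fold higher (1.73 to 1.98). This log2 ratio of 0.88 stood beside a median of all genes of 0.82, and it was 0.16 with TMM factors and 0.03 with DESeq2 factors. The small positive ratios of Ifit3 and Ifit3b turned negative with each other scaling. Of the genes past the line there, 89.6% were higher by the table's total, 60.1% with TMM factors and 51.8% with DESeq2 factors. The ADAR1i-124, 5-AZA-CdR and combination comparisons share libraries, and their values are set side by side without a test.

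The precipitated libraries were also compared with the IgG library, in which Ifit1 was at 219 CPM, Ifit2 at 136, Ifit3 at 320 and Ifit3b at 122. IFIT reads were thus present in the control precipitation at levels close to those of J2 RNA with DMSO, where the ratio to IgG was 1.02-fold for Ifit3 (0.980 to 1.07), of a sign that turned with TMM and DESeq2 factors, and Ifit3b, Ifit1 and Ifit2 were 1.12-fold, 1.15-fold and 1.33-fold lower than IgG. The treatment of the cells behind IgG is not stated, so the ratios below mix antibody and treatment. J2 RNA with ADAR1i-124 was below IgG in all 4 members, past the line beside 4.46% of all genes, by 17.4-fold for Ifit3 and 3.24-fold for Ifit2. J2 RNA with 5-AZA-CdR was above IgG past the line for Ifit3 (2.54-fold) and Ifit3b (2.52-fold), beside 13.0% of all genes, and at the line below IgG for Ifit2 (2.0-fold). Ifit2 was past it with TMM or DESeq2 factors. Z22 RNA with ADAR1i-124 was below IgG past the line for Ifit1 (2.45-fold), Ifit3 (2.15-fold) and Ifit3b (2.07-fold), beside 1.85% of all genes.

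In Z22 RNA with DMSO, with 5-AZA-CdR and with the combination, the members stayed within 2-fold of IgG by the table's total, where 56.7%, 26.5% and 27.8% of all genes in that order were past the line in either direction. With DMSO, Ifit3 was 1.86-fold higher in Z22 RNA than in IgG (1.79 to 1.94) and Ifit3b 1.55-fold higher (1.45 to 1.65), while Ifit1 was 1.51-fold lower (1.42 to 1.61) and Ifit2 1.16-fold lower (1.07 to 1.25). The median of all genes was −0.83 on the log2 scale there, and 19.9% of the genes past the line were higher, against 42.5% with TMM factors. With TMM factors the log2 ratios of Ifit3 and Ifit3b were 1.53 and 1.26, past the line, and the signs of Ifit1 and Ifit2 turned with TMM and DESeq2 factors. With 5-AZA-CdR all 4 members were below IgG in Z22 RNA, with log2 ratios of −0.08 for Ifit3, −0.24 for Ifit3b, −0.53 for Ifit1 and −0.72 for Ifit2, where the median of all genes was 0.18. With TMM factors Ifit2 was at −1.05, past the line, and the share of genes past the line that were higher went from 80.6% to 54.1%. With the combination, Ifit3 was 1.97-fold higher in Z22 RNA than in IgG (1.90 to 2.05), Ifit3b 1.66-fold higher (1.56 to 1.77), Ifit1 1.22-fold higher (1.16 to 1.29) and Ifit2 1.31-fold lower (1.21 to 1.41). By the table's total, Ifit3 and Ifit3b were thus above IgG with DMSO and with the combination and below it with 5-AZA-CdR, and Ifit2 was below it in all 3 libraries.

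Among the ADAR1i-124 libraries the members differed by the kind of RNA. Ifit3 was at 2.38 CPM in total RNA, 18.3 in J2 RNA and 148 in Z22 RNA, and Ifit1 was at 7.72, 25.0 and 89.3 CPM. Ifit3b followed Ifit3, at 1.19, 7.22 and 59.1 CPM, and Ifit2 was at 37.0, 42.1 and 92.1 CPM. Every member was thus lowest in total RNA and highest in Z22 RNA. So were the 10 most alike genes named below. With DMSO, Ifit3 (227, 327 and 595 CPM) and Ifit3b (81.5, 109 and 189 CPM) had the same order, and Ifit1 and Ifit2 were highest in total RNA by the table's total. Z22 RNA with DMSO exceeded total RNA past the line for Ifit3 and Ifit3b, with log2 ratios of 1.39 and 1.21, beside 6.61% of all genes and an all-gene median of −1.18. The negative ratio of Ifit2 there turned with each other scaling and that of Ifit1 with TMM and DESeq2 factors. Of the genes past the line there, 10.8% were higher by the table's total and 40.8% with TMM factors. With ADAR1i-124 against total RNA, all 4 were past the line in Z22 RNA (4.68% of all genes were higher past it), by 62.3-fold for Ifit3 and 2.49-fold for Ifit2, and 3 were past it in J2 RNA (5.04% of all genes), where Ifit2 was 1.14-fold higher (1.02 to 1.27). Z22 RNA exceeded J2 RNA in all 4, past the line beside 2.99% of all genes, by 8.10-fold for Ifit3 (7.12 to 9.23) and 2.19-fold for Ifit2 (1.99 to 2.41). The median of all genes in the last comparison was −0.00 on the log2 scale, while against total RNA it was −0.30 for both antibodies. Genes past the line against total RNA were higher in 28.4% of cases for Z22 and 25.5% for J2 by the table's total, and in 53.6% and 45% with TMM factors. With 5-AZA-CdR the order was the other way for Ifit3 and Ifit3b, which were 2.69-fold and 2.98-fold lower in Z22 than in J2 RNA, past the line beside 3.62% of all genes. Ifit1, 1.95-fold lower there, was also past it with the other scalings. Genes past the line were higher in Z22 in 68.7% of cases by the table's total and in 47.2% with TMM factors. J2 RNA with 5-AZA-CdR exceeded total RNA past the line for Ifit3 and Ifit3b, with log2 ratios of 1.81 and 1.61, beside 4.94% of all genes. Ifit1 was at 0.86 and Ifit2 at −0.36 there, where the median of all genes was −0.37. Of the genes past the line, 20.7% were higher by the table's total and 41.5% with TMM factors.

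Ifit3 and Ifit3b are nearly the same coding sequence. Of 1209 aligned coding bases, 1198 are identical (99.1%), and 18.5% of all stretches of 150 bases in the Ifit3 transcript also occur in Ifit3b, as do 51.2% of stretches of 50 bases. Counts of these genes are therefore uncertain where the counting could split shared reads. Ifit3 counts per Ifit3b count lay between 2.0 (1.16 to 3.56, total RNA with ADAR1i-124) and 3.15 (2.98 to 3.33, Z22 RNA with DMSO), with a median of 2.63. Across the 12 libraries Pearson's r of log2(CPM + 0.5) was 0.998 between them. It was 0.965 between Ifit1 and Ifit3, and 0.695 to 0.758 between Ifit2 and the others, where Spearman's rho was only 0.196 to 0.322. These coefficients describe 12 libraries of 1 cell line that share treatments, and the ADAR1i-124 libraries carry much of the range. The related genes Ifit1bl1 and Ifit1bl2 were low, together at 0.454 to 8.67 CPM in the libraries used, and 1.24% of stretches of 150 bases in the Ifit1 transcript occur in Ifit1bl2.

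Other genes of the pathway were described from lists. Among 25 interferon-stimulated effectors, such as the antiviral GTPases, the oligoadenylate synthetases and the nucleic acid sensor Zbp1, all 25 were past the line and lower with ADAR1i-124 in total RNA, with a median log2 ratio of −4.63, beside 8.70% of all genes. In J2 RNA 24 were, with a median of −2.59, beside 10.8% of all genes. In Z22 RNA 12 were, with a median of −0.99, beside 5.13% of all genes and an all-gene median of 0.81. With TMM factors 22 effectors of Z22 RNA were past the line, with a median of −1.67, beside 14.6% of all genes, and with DESeq2 factors 22, with a median of −1.85, beside 18.8%. The largest differences in total RNA were those of Ifi44 (268 CPM with DMSO, 0.397 with ADAR1i-124), Oas2 (94.7 and 0.114) and Oasl2 (303 and 1.59). In the combination against ADAR1i-124, all 25 effectors of J2 RNA and 22 of Z22 RNA were past the line and higher, with medians of 3.06 and 1.85, beside 14.3% and 9.91% of all genes.

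Upstream of the family, 9 of 10 sensing genes passed the level filter in total RNA and 4 of them were lower past the line with ADAR1i-124, beside 8.70% of all genes. They were Irf7, an interferon regulatory factor (83.6 CPM with DMSO and 0.851 with ADAR1i-124), the RNA helicases Dhx58 (75.2 and 2.27) and Ifih1, also called MDA5 (222 and 21.2), and Ddx58, also called RIG-I (421 and 48.4). Traf3, an adaptor of Mavs, was higher but not past the line (58.9 and 103). The interferon gene Ifnb1 had 3 counts with DMSO and 0 with ADAR1i-124, which at this depth allows up to 0.17 CPM, and no more than 8 counts in any library used. Of 9 receptor and signaling genes, 4 were lower past the line in total RNA, among them Usp18, a brake on the receptor, with a log2 ratio of −6.74, and the transcription factor subunits Stat2 (−3.97) and Irf9 (−3.04). The receptor genes Ifnar1 and Ifnar2, named after their values were seen, had log2 ratios of 0.17 each. In J2 RNA 5 of 9 sensing genes and 4 of 9 signaling genes were lower past the line, beside 10.8% of all genes. In Z22 RNA 2 and 2 were, beside 5.13% of all genes, or 4 and 4 with TMM factors (14.6% of all genes) and with DESeq2 factors (18.8%). Of 4 enzymes that methylate the messenger RNA cap, only Cmtr1, which methylates the first nucleotide, was past the line in total RNA (11.5 and 5.11 CPM).

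**Figure D4:**
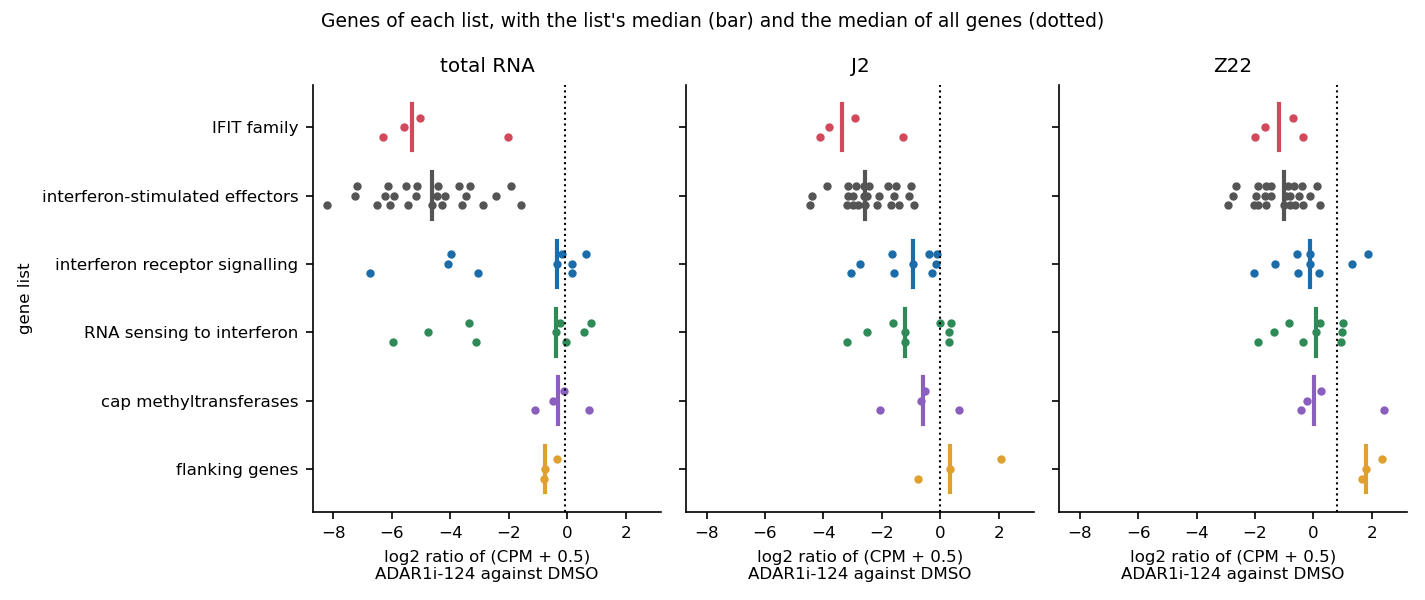
log2 ratio of (CPM + 0.5) with ADAR1i-124 against DMSO in total, J2 and Z22 RNA, for each gene (point) of 6 lists, with each list's median (bar) and the median of all genes (dotted line). The medians of the IFIT family are −5.32, −3.37 and −1.18, and those of the effectors −4.63, −2.59 and −0.99.

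The genes flanking the family differed among themselves. Lipa, Pank1 and Kif20b passed the filter, and Ch25h and Slc16a12 were at or near 0. In total RNA with ADAR1i-124 none of the 3 was past the line, with log2 ratios of −0.75, −0.81 and −0.37. All 3 thus had the sign of the family there, with smaller ratios, as did the median of all genes at −0.09. In J2 RNA Lipa, a lysosomal lipase, again had the sign of the family, with a log2 ratio of −0.78 (−0.97 to −0.61) for ADAR1i-124 against DMSO and 0.86 (0.70 to 1.05) for the combination against ADAR1i-124, neither past the line. Kif20b, a mitotic kinesin, went the other way, at 34.4 CPM with DMSO, 147 with ADAR1i-124 and 42.7 with the combination, and Pank1 had log2 ratios of 0.33 and −0.83. In Z22 RNA the log2 ratios of Lipa, Pank1 and Kif20b were 2.34, 1.79 and 1.66 by the table's total, where the median of all genes was 0.81.

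By Pearson's r with the family's mean log2(CPM + 0.5) over the 12 libraries, ranked over the 8885 genes that averaged at least 10 CPM, the most alike genes were Mx2 (0.982), Rsad2 (0.981), Dhx58 (0.981), Ifih1 (0.977), Isg15 (0.974), Apol9a (0.971), Mx1 (0.971), Usp18 (0.969), Gbp5 (0.968) and Parp14 (0.965). Of these 10 genes, 8 are in the lists above and Apol9a and Gbp5 are not. Mx2, an antiviral GTPase, was at 58.1 CPM in total RNA with DMSO, 0.454 with ADAR1i-124 and 39.9 with 5-AZA-CdR. Its J2 levels were 46.2 CPM (DMSO), 6.18 CPM (ADAR1i-124), 80.9 CPM (5-AZA-CdR) and 83.4 CPM (combination), and its Z22 levels in that order were 103, 27.1, 70.8 and 99.4 CPM. Rsad2, an antiviral radical enzyme also called viperin, was at 242, 11.9 and 144 CPM in the 3 total RNA libraries. The total RNA library with ADAR1i-124 was the lowest, and the J2 library with ADAR1i-124 the next, for each of the 10 genes and for all 4 members. The 10 genes were picked for likeness over these same 12 libraries, so this sharing follows largely from the choice.

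**Figure D5:**
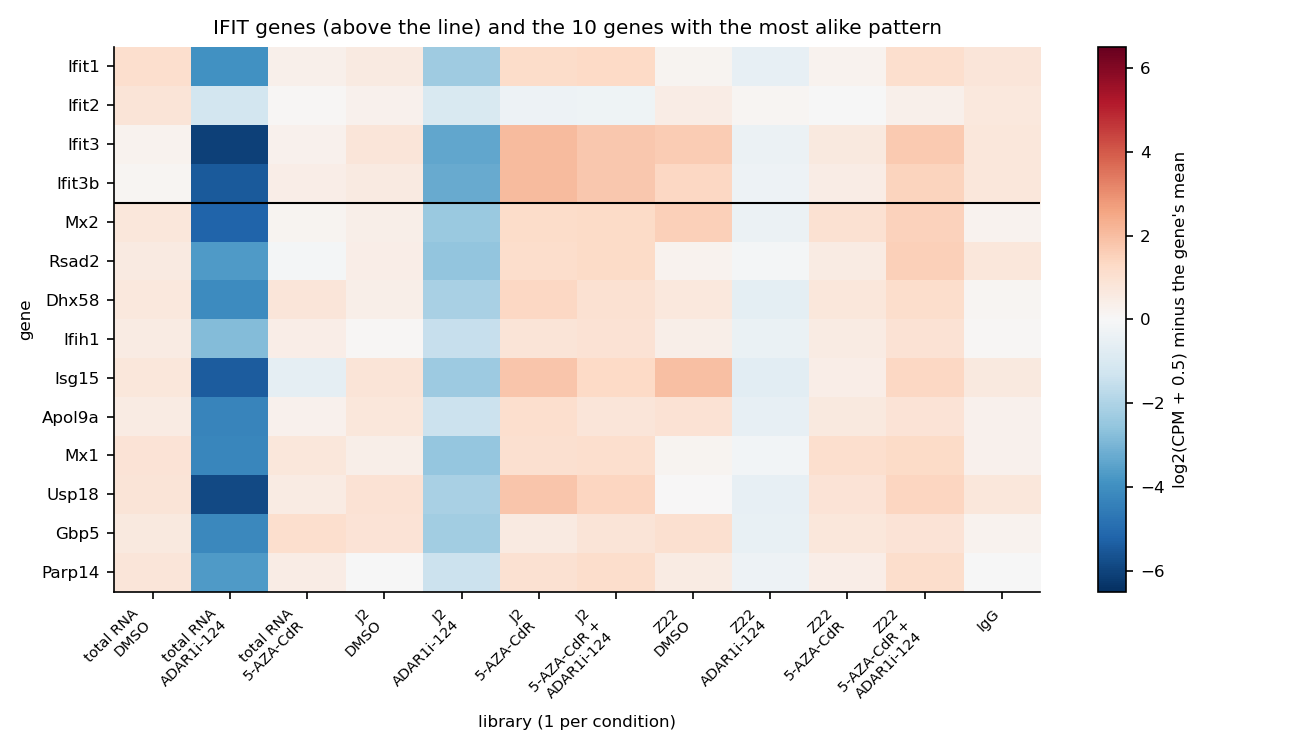
log2(CPM + 0.5) minus the mean of each gene over the 12 libraries used, for the 4 IFIT genes and the 10 genes with the highest Pearson's r with their mean (0.965 to 0.982). The columns of total and J2 RNA with ADAR1i-124 are the darkest blue in every row, and the row of Ifit2 is the palest.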

How the data were processed

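The authors deposited a table of raw counts per gene for 13 libraries, with 1 library per condition, made from reads mapped to mm10 with STAR in snakePipes 2.8.0. The counting tool and its strand setting are not given in the sources used here. Gene symbols came from GENCODE M21 (GRCm38), matched for 54409 genes and not for 123. Counts were divided by the table's total (CPM) and compared as log2(CPM + 0.5) over those genes that averaged at least 1 CPM in the compared libraries. Intervals are exact binomial (Clopper-Pearson, scipy 1.17.1) at 95%, from counts without the 0.5 CPM, and 3 counts served as the floor. With 1 library per condition, edgeR 4.0.16 and DESeq2 1.42.0 gave scaling factors only and no test was run. All calls are folds, from scripts tested on simulated counts with known folds. Promoter and coding sequences came from RefSeq (GRCm38.p6) and the GRCm38 annotation. The total RNA library of the combination was set apart. The named genes were the 4 members, at most 5 per list and comparison by size of the log2 ratio, those at a level of 0, and the 10 most alike genes. Ifnar1 and Ifnar2 were named outside this rule. Members and lists were chosen with earlier results of these data known. Alternatives were TMM factors, DESeq2 size factors, totals without the 20 highest genes, pseudocounts of 0.1 and 2 CPM, a 4-fold line and no level filter. Processing ran in Python 3.11.15 (pandas 2.3.3, numpy 2.4.6) and R 4.3.3.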

Additional observations from a re-analysis of the deposited data

Results flagged for a closer look

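Ifit1, Ifit3 and Ifit3b had ratios of opposite sign with 5-AZA-CdR in different kinds of RNA, while Ifit2 was lower in all 3, at −0.81 in total RNA, −0.59 in J2 RNA and −0.51 in Z22 RNA on the log2 scale. These differences were not tested, since each rests on 1 library per condition. The log2 ratio of (CPM + 0.5) to DMSO was −0.74 for Ifit1 in total RNA and 0.63 in J2 RNA. For Ifit3 it was 1.31 in J2 RNA and −0.98 in Z22 RNA. For Ifit3b it was 0.31 in total RNA, 1.50 in J2 RNA and −0.86 in Z22 RNA. The Z22 values rest on the DMSO library with 34.9% of its counts on Gm42418.

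The total RNA library of the combination, used in no comparison, held counts on genes that lie near the family on the other strand. Its values were 36.1 CPM for Ifit1bl1 and 13.6 CPM for Ifit1bl2, above the values of total RNA with DMSO, and they cannot be read as levels of these genes. In the same library Ifit1 had 6 counts, Ifit2 had 2, and Ifit3 and Ifit3b had 0, which at 3 counts allows up to 2.41 CPM. This is the library whose counts correlated better with the partner genes on the opposite strand than with the same genes, so its counts give no IFIT level for the combination.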

How the results depend on the processing

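Fits with treatments as blocks (Z22 against J2 RNA) or kinds of RNA as blocks (ADAR1i-124 against DMSO) were not run. With 1 library per condition no library could be left out, and the limits of depth are counting limits of 0.0868 to 0.367 CPM (3 counts) in the libraries used. Of 144 recounts of members past the line, 130 stayed within 1.5 times the reported count. Many of the reported counts were 0, and for these staying means remaining at 0. With TMM factors, Z22 RNA had 4 members lower with ADAR1i-124 against DMSO, 3 lower with 5-AZA-CdR against DMSO and 3 higher with the combination against 5-AZA-CdR. With DESeq2 size factors these were 4, 4 and 3, and 1 was lower with the combination against DMSO. With totals that leave out the 20 highest genes, 3 were lower in Z22 RNA with 5-AZA-CdR against DMSO and 2 higher with the combination against 5-AZA-CdR. At a 4-fold line the counts were 0 for J2 RNA with 5-AZA-CdR and with the combination against DMSO, 0 for Z22 RNA with ADAR1i-124 against DMSO and with the combination against 5-AZA-CdR, and 1 for the combination against ADAR1i-124 in Z22 RNA. The scaling changes came with a shift of the all-gene median, which in Z22 RNA against DMSO was 0.81 to 1.06 by the table's total and −0.02 to 0.03 with DESeq2 factors. In counts of listed genes, recomputed with alternatives chosen after seeing the data, the effectors lower in Z22 RNA with ADAR1i-124 went from 12 to 22 (TMM and DESeq2) and 19 (without the 20 highest genes). Of 600 recomputed member log2 ratios, 37 had the other sign, and none of these was past the line in the reported values. Of the 10 most alike genes, 9 were shared under each other scaling and 4 with Spearman's rho.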
